A study of Homo sapiens with 6 samples.

Results

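The genes described here are the replication-dependent histone genes of the HIST1, HIST2, HIST3 and HIST4 clusters, measured in poly(A)-selected RNA. The rule took every gene of the count table whose symbol begins with HIST1H, HIST2H, HIST3H or HIST4H and that had at least 10 counts summed over the 6 libraries. Of 74 such symbols, 55 met the minimum, out of 28008 genes in the table. They comprised 5 H1, 14 H2A, 17 H2B, 9 H3 and 10 H4 genes, 44 of them in HIST1, 8 in HIST2, 2 in HIST3 and 1 in HIST4. The H2B symbols include HIST2H2BA and HIST2H2BC, which are annotated as transcribed pseudogenes. The rule used only summed counts and no difference between groups.

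The cells were DU-145-DR, a docetaxel-resistant derivative of DU-145, a human prostate cancer line, carrying the doxycycline (DOX)-inducible hairpin tet-MUC1shRNA against MUC1. The 3 DOX-negative libraries came from cells given DMSO vehicle, and the 3 DOX-positive libraries from cells given 500 ng/ml DOX for 7 days. Both groups carried the resistant background and, by the study's design, the same hairpin. No library with DOX and a control hairpin was analysed here, so silencing of MUC1 and exposure to DOX cannot be told apart. The study's methods state that cells were grown in triplicate for sequencing, and the labels add nothing on how the replicates were grown, so p-values measure the spread between these samples.

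Replication-dependent histone genes supply the core histones H2A, H2B, H3 and H4 and the linker histone H1 that package newly copied DNA, and their messages accumulate in S phase. Most of these messages carry no poly(A) tail. They end just past a short stem-loop that is bound by SLBP, the stem-loop binding protein, and is cut by a complex containing U7 snRNA. A subset of the genes can also be read through to a downstream poly(A) site, and such tailed messages are known from cells that leave the cycle or differentiate. A poly(A)-selected library therefore samples the tailed messages, plus whatever tail-less RNA is carried through the selection. In bulk RNA, fewer cells expressing a gene and less RNA per cell cannot be told apart.

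Total counts ran from 15092691 to 23243713 per library, of which the 55 histone genes took 0.190% to 0.236%. MUC1 stood at 21.3, 24.8 and 19.7 CPM (counts scaled to normalised library sizes) in DOX-negative replicates 1 to 3 and at 3.27, 3.87 and 4.44 in DOX-positive replicates 1 to 3, a log2 fold change of -2.52 ± 0.15 (SE, adjusted p = 4.47e-11 by edgeR). Of 14 cell type markers, 7 had enough counts to be tested, and KLK3 and CHGA had 0 counts in all 6 libraries. The epithelial genes KRT8, KRT18, KRT19, EPCAM and CDH1, 5 of the 7, were higher in DOX-positive cells, and the rest did not pass the test. Over all genes tested, 13.0% were higher by edgeR. One library stood apart. The summed level of 16 RNAs that normally lack a poly(A) tail, among them RN7SL1, RN7SK and RPPH1, was 5409 CPM in DOX-negative replicate 2, against 12512 and 19304 CPM in the other DOX-negative libraries and 16219 to 17491 CPM in the DOX-positive ones. Results are therefore also given without that library, and the part that carry-over of tail-less RNA had in them was not tested.

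The 2 kinds of message differ in whether they end just past the stem-loop or run on to a poly(A) site. The stem-loop could be read in the annotated transcripts. A search of GENCODE 29 transcripts for a 16-base stem-loop, with a stem opening GG and a loop of 4 bases opening TT, found one in 22 of the 55 genes. Of the 55, 53 had a coding transcript to search. In 27 genes the annotation ended at the stop codon, so no stem-loop could be looked for; these included HIST1H1C, HIST1H2AH and HIST2H2AC. The stem-loops below are those of 4 genes that changed and of 3 abundant genes that did not pass the test, read 5′ to 3′ on GRCh38 with both arms of the stem in capitals.
HIST1H2AC, chr6:26124664-26124689, plus strand: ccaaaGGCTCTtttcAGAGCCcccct
HIST1H2AE, chr6:26217412-26217437, plus strand: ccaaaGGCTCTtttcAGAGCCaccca
HIST1H2AG, chr6:27133510-27133535, plus strand: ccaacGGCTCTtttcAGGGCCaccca
HIST1H3G, chr6:26270918-26270943, minus strand: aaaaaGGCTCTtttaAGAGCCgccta
HIST1H2BC, chr6:26123467-26123492, minus strand: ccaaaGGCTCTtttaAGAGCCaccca
HIST2H2BE, chr1:149886183-149886208, minus strand: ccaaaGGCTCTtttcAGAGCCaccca
HIST1H4B, chr6:26026896-26026921, minus strand: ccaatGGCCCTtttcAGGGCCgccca
The 6-base arms of HIST1H2AC, HIST1H2AE, HIST1H3G, HIST1H2BC and HIST2H2BE were the same, HIST1H2AG differed in its downstream arm, and HIST1H4B differed in both. In each gene the annotated transcript ran past the loop. It ended 51 bases beyond the loop in HIST1H2AE and 116 in HIST1H2BC, but 1128 beyond it in HIST1H2AC, 1518 in HIST1H3G, 1729 in HIST2H2BE and 1761 in HIST1H2AG. In GENCODE 29, extensions past the stem-loop were thus present both in genes that changed and in genes that did not pass the test. The gene models behind the deposited values need not hold these extensions.

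Levels between genes were compared on the deposited TPM, a length-scaled unit. HIST1H2BC had the highest mean TPM, at 1326 ± 237 in DOX-negative and 1156 ± 40.5 in DOX-positive cells (SD, n = 3 each). It was followed over all libraries by the linker histone gene HIST1H1C, by HIST2H2AC and by HIST1H2BK. The leading H4 genes were HIST1H4B, at 715 ± 123 and 599 ± 64.9 TPM, and HIST1H4H, at 582 ± 134 and 500 ± 37.0 TPM, and the leading H3 gene was HIST1H3B, at 566 ± 128 and 490 ± 30.3 TPM. At the low end, HIST2H3PS2 had 0.256 TPM in DOX-negative cells. Within each histone type the genes thus spread over orders of magnitude.

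**Figure D1:**
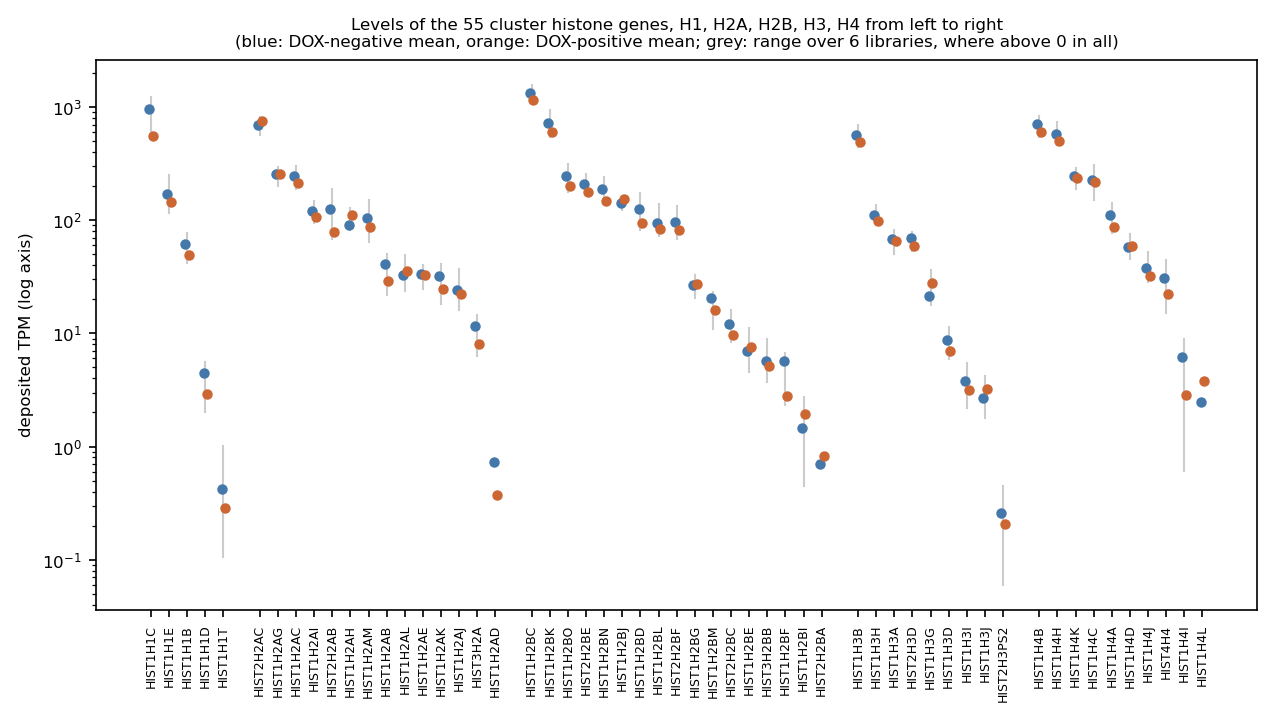
Deposited TPM (log axis) of the 55 genes, ordered by level within H1, H2A, H2B, H3 and H4. Blue and orange points are the means of 3 DOX-negative and 3 DOX-positive libraries and grey lines the range over all 6; HIST1H2BC was highest and HIST2H3PS2 lowest.

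This order depended on the gene lengths behind the TPM. The length per gene that counts and TPM imply was taken relative to that of ACTB. It was 1.43 for HIST2H3PS2, 1.18 for HIST2H2BE, 0.478 for HIST2H2BF, 0.368 for HIST1H2BK and 0.273 for HIST1H1C. By contrast, it was 0.0934 for HIST1H2BC and from 0.0421 to 0.0775 for the 10 H4 genes. Short genes were so scaled up in TPM, while HIST2H3PS2, lowest by TPM, had more counts (56) than HIST1H2AD (11). By CPM, which is not divided by length, HIST1H2BK (338 ± 15.9), HIST1H1C (329 ± 6.92) and HIST2H2BE (319 ± 38.9, SD, n = 3 DOX-negative libraries) took the most reads. Where reads beyond the stem-loop lay outside the gene model used for counting, they were not counted.

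The count minimum removed 19 symbols, 13 of which had 0 counts in all 6 libraries. Just inside the minimum were HIST1H2AD with 11 counts and HIST1H1T, a testis-type linker histone gene, with 15. Just outside were HIST1H2BB with 6 and HIST1H1A with 4. HIST2H2AA3 and HIST2H2AA4, HIST2H3A and HIST2H3C, and HIST2H4A and HIST2H4B were all listed at 0. These are duplicated copies that share from 96.2% to 100% of their 75-base windows with another annotated gene. HIST1H4K, also at 100%, had 1799 counts, and HIST1H2BH, at 0%, had 0. The cause of the zeros was not tested. Among the 55 genes, 11 shared over 50% of their 75-base windows with another annotated gene, and their values are uncertain on that account. They include HIST1H2BK, at 50.5%, and HIST1H4K, at 100%. None of those 11 passed the test below. HIST2H2AC, which did pass, shared 23.7% of its windows, with HIST2H2AA3 and HIST2H2AA4.

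Of the 55 genes, 49 had enough counts to be tested and 6, with at most 34 counts each, did not. Between DOX-negative and DOX-positive cells, 7 histone genes were higher and 1 was lower by edgeR's quasi-likelihood test at an adjusted p under 0.05. Together these were 16.3% of those tested, against 26.7% of all 14292 genes tested. The genes that were higher made up 14.3%, against 13.0% of all genes, and the gene that was lower 2.04%, against 13.7%. The share of calls among histone genes was thus near the background for higher calls and below it for lower calls. The 7 were HIST1H2AC, HIST1H2AE, HIST1H2AG, HIST1H2AH and HIST2H2AC, which encode H2A, the H2B gene HIST1H2BJ and the H3 gene HIST1H3G. The 1 was HIST1H1C, which encodes the linker histone H1.2. The number of higher genes moved with the settings. It was 4 when DOX-negative replicate 2 was left out, 4 when DOX-positive replicate 3 was, 13 when DOX-positive replicate 2 was, and 4 with offsets for GC content and length, with 1 lower in each case. On log2 of the deposited TPM, tested with limma, 0 were higher and 0 lower, and once 5 short tail-less RNAs were left out of the TPM before rescaling 8 were higher and 1 lower.

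Most fold changes lay on the same side of 0, called or not. Of the 49 fold changes, 42 were above 0, or 85.7%, against 49.5% of all genes tested, with a median log2 fold change of 0.20 against -0.00336 for all genes; on the deposited TPM the same median was -0.18, where that of all genes was -0.32. The genes also varied together between libraries of the same group. DOX-negative replicate 3 was the highest of its group in 31 of the 49 genes and replicate 2 the lowest in 30. DOX-positive replicate 1 was the highest of its group in 30 and replicate 2 the lowest in 33. The 49 fold changes are therefore not independent of each other.

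**Figure D2:**
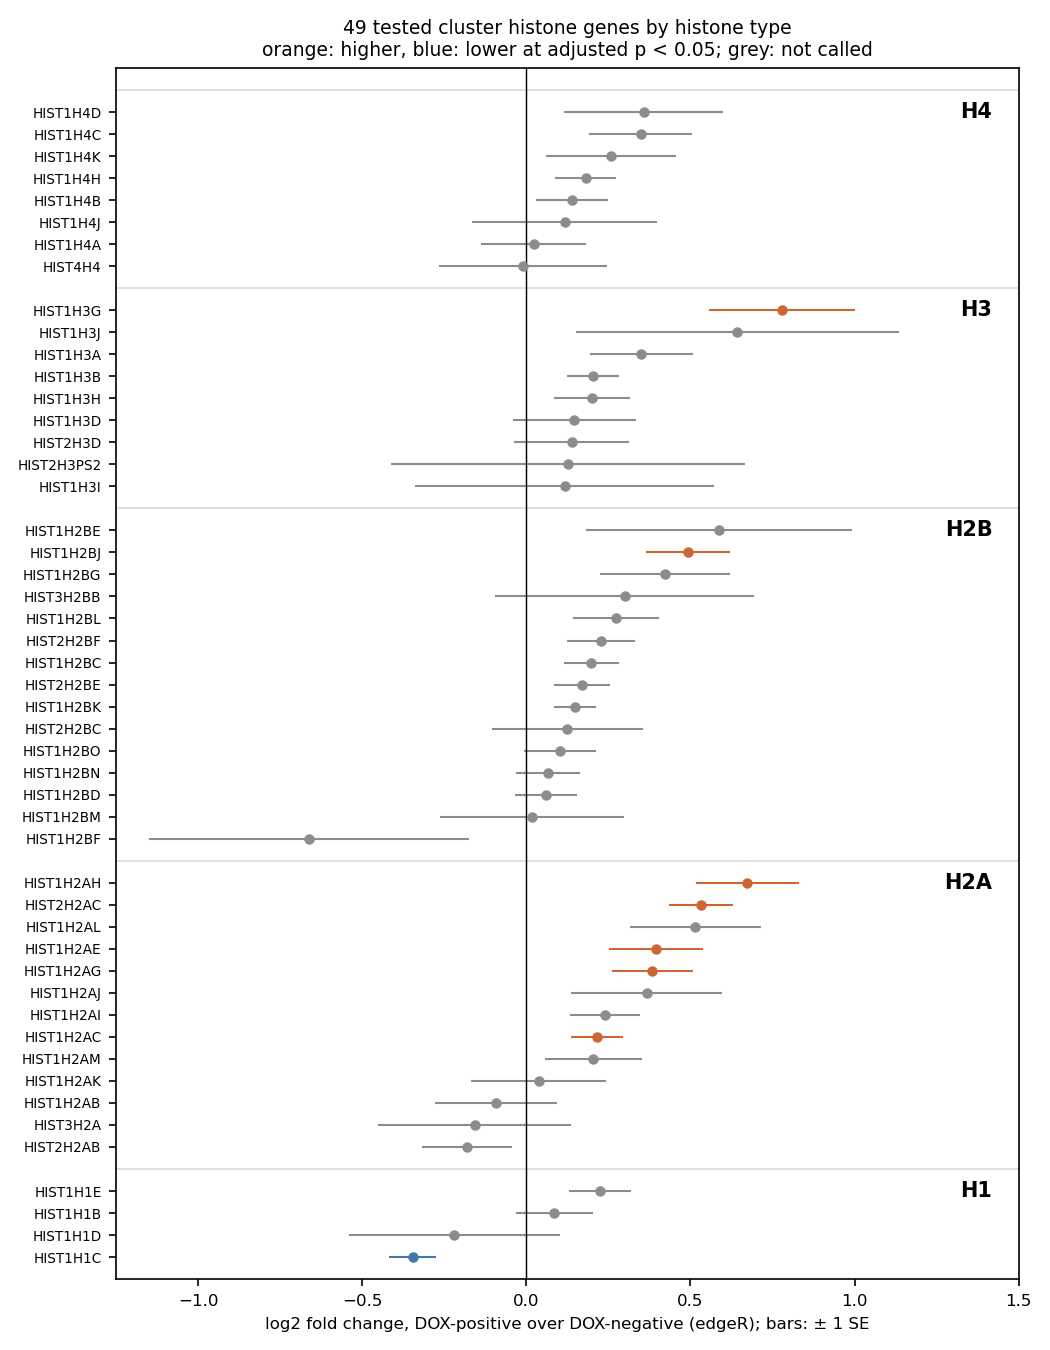
log2 fold change (DOX-positive over DOX-negative, x axis) with 1 SE for the 49 genes tested, grouped by histone type; orange genes were higher and blue lower at an adjusted p under 0.05. Of these, 42 lie above 0 and 8 are coloured, with HIST1H1C the blue gene; on the deposited TPM 11 of 49 lay above 0.

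Per library, the median over the 49 genes of the log2 ratio to the DOX-negative mean was -0.02, -0.12 and 0.14 in DOX-negative replicates 1 to 3. It was 0.31, 0.06 and 0.21 in DOX-positive replicates 1 to 3. The groups overlapped, because DOX-positive replicate 2 lay below DOX-negative replicate 3. The summed level of all 55 genes behaved alike, at 1955, 1851 and 2134 CPM in DOX-negative and 2390, 1957 and 2153 CPM in DOX-positive replicates 1 to 3. The means were 1980 ± 143 and 2166 ± 217 CPM (SD, n = 3 each), so the DOX-positive sum was 109% of the DOX-negative one, a difference within the spread between replicates.

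Among the H1 genes, HIST1H1C (chr6:26055787-26056428, minus strand, 1 exon) stood at 330, 322 and 335 CPM in DOX-negative replicates 1 to 3 and at 292, 232 and 252 CPM in DOX-positive replicates 1 to 3. All DOX-positive libraries lay below all DOX-negative ones, and its log2 fold change was -0.35 ± 0.07 (SE, adjusted p = 0.000977 by edgeR). The gene encodes H1.2, a linker histone, and is one of those known to give polyadenylated messages. It supplied most of the H1 counts, 78.4% ± 1.65 of summed H1 CPM in DOX-negative and 71.5% ± 1.68 in DOX-positive libraries (SD, n = 3 each). The summed H1 level accordingly went from 420 ± 7.41 to 362 ± 42.8 CPM, while that of the other H1 genes was 90.8 ± 7.66 and 103 ± 14.4 CPM.

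HIST1H1E, encoding H1.4, was at 58.1, 73.3 and 62.7 CPM in DOX-negative and at 81.2, 64.5 and 81.3 CPM in DOX-positive replicates 1 to 3. The groups overlapped in DOX-positive replicate 2, and the log2 fold change of 0.23 ± 0.09 had an adjusted p of 0.0821 by edgeR. That p was 0.0168 when DOX-negative replicate 2 was left out and 0.00635 when DOX-positive replicate 2 was, so single libraries decided this call. HIST1H1B had a log2 fold change of 0.09 ± 0.12 and HIST1H1D one of -0.22 ± 0.32. Of the 4 H1 genes tested, 1 was thus lower and 3 did not pass the test.

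The H2A genes, which encode the partner of H2B in the nucleosome, held 5 of the 7 genes that were higher, 38.5% of the 13 tested, against 13.0% of all genes. Of these, 2 (HIST1H2AH and HIST2H2AC) were called when DOX-negative replicate 2 or DOX-positive replicate 3 was left out, or with offsets for GC content and length. HIST2H2AC (chr1:149886975-149887364, plus strand), the most abundant H2A gene, stood at 87.8, 68.5 and 93.1 CPM in DOX-negative and at 138, 108 and 114 CPM in DOX-positive replicates 1 to 3. The groups did not overlap, and the log2 fold change was 0.53 ± 0.10 (SE, adjusted p = 0.000339 by edgeR), with the DOX-positive mean at 144% of the DOX-negative one. Over the 49 histone genes, all DOX-positive libraries lay above all DOX-negative ones in 9 genes, or 18.4%, against 19.5% of all genes tested, and below them in 1, HIST1H1C, against 20.2% of all genes. The number of separated genes was therefore near the background on the higher side.

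HIST1H2AH (chr6:27147129-27147515, plus strand) had 13.5, 11.7 and 17.4 CPM in DOX-negative and 28.3, 16.9 and 22.5 CPM in DOX-positive replicates 1 to 3. DOX-positive replicate 2 fell just below DOX-negative replicate 3, and the log2 fold change was 0.67 ± 0.16 (SE, adjusted p = 0.00266 by edgeR). HIST1H2AG (chr6:27133042-27135291, plus strand) had 47.8, 36.3 and 45.9 CPM in DOX-negative and 65.8, 42.5 and 61.2 CPM in DOX-positive replicates 1 to 3. Again DOX-positive replicate 2 lay within the DOX-negative range. The log2 fold change of HIST1H2AG was 0.38 ± 0.12 (SE, adjusted p = 0.0242 by edgeR), and its adjusted p was 0.123, 0.164 or 0.0873 when DOX-negative replicate 2, DOX-positive replicate 1 or DOX-positive replicate 3 was left out.

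The remaining H2A calls were at the edge of the threshold. HIST1H2AE (chr6:26216975-26217483, plus strand) had 7.82, 6.49 and 7.36 CPM in DOX-negative and 8.85, 9.56 and 10.2 CPM in DOX-positive replicates 1 to 3, with no overlap and a log2 fold change of 0.39 ± 0.14 (SE, adjusted p = 0.0459 by edgeR). HIST1H2AC (chr6:26124145-26139116, plus strand) had 50.3, 46.0 and 53.5 CPM in DOX-negative and 60.0, 56.3 and 57.5 CPM in DOX-positive replicates 1 to 3, with no overlap and a log2 fold change of 0.22 ± 0.08 (SE, adjusted p = 0.0488 by edgeR). Leaving out any of the 6 libraries ended the HIST1H2AE call, at adjusted p from 0.0564 to 0.154. Leaving out DOX-negative replicate 1 or 2, or DOX-positive replicate 1 or 3, ended that of HIST1H2AC, at adjusted p from 0.0986 to 0.179. The H2A gene with the most negative fold change was HIST2H2AB, which overlaps BOLA1 on the other strand, at -0.18 ± 0.14 (edgeR adjusted p = 0.362), so a neighbour of HIST2H2AC in the same cluster had a value of the opposite sign.

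**Figure D3:**
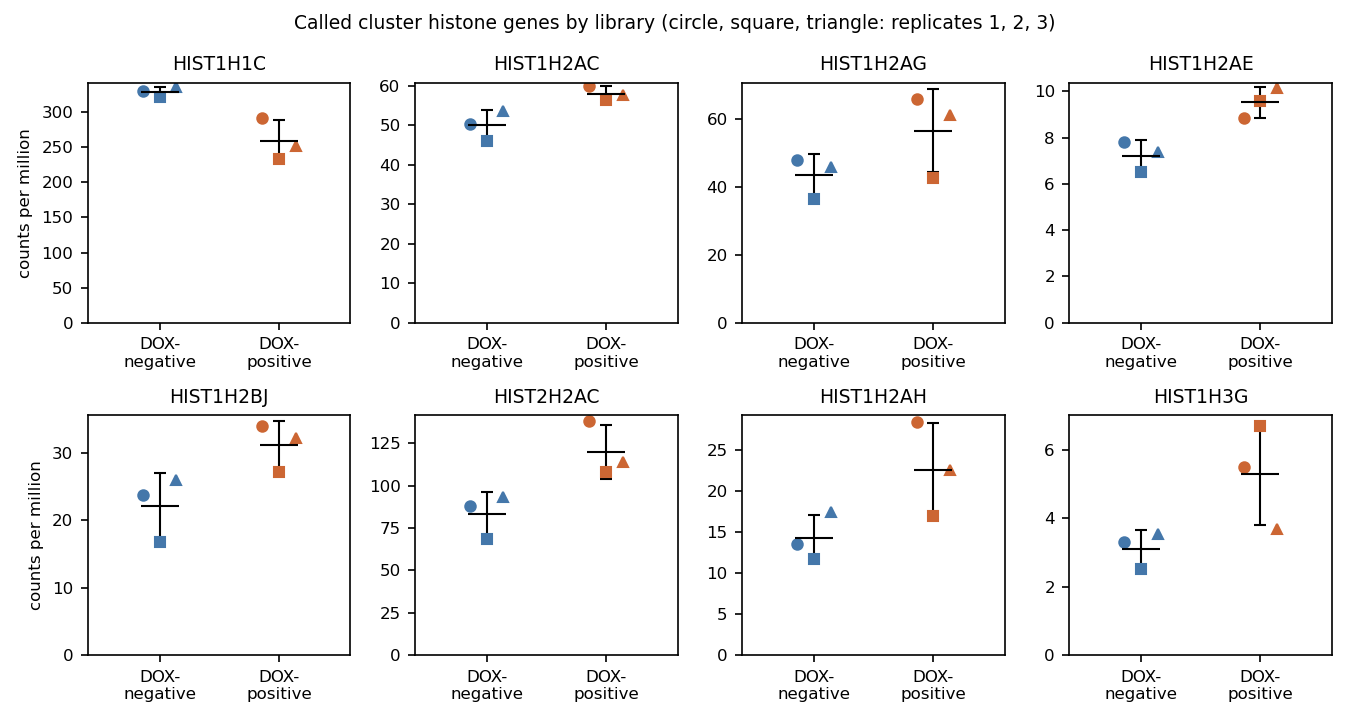
CPM of the 8 histone genes that passed the test, by group, with circles, squares and triangles for replicates 1, 2 and 3 and black bars for the mean and SD of 3 libraries. The DOX-positive points lie below the DOX-negative ones for HIST1H1C and overlap them for HIST1H2AG and HIST1H2AH.

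Among the H2B genes, HIST1H2BJ (chr6:27125897-27132750, minus strand) was higher. It had 23.7, 16.7 and 25.9 CPM in DOX-negative and 34.0, 27.2 and 32.1 CPM in DOX-positive replicates 1 to 3, with no overlap. Its log2 fold change was 0.49 ± 0.13 (SE, adjusted p = 0.00597 by edgeR). The 4 H2B genes with the most reads did not pass the test. HIST1H2BK, a gene known to give polyadenylated messages, had 327, 331 and 356 CPM in DOX-negative and 395, 352 and 377 CPM in DOX-positive replicates 1 to 3, a log2 fold change of 0.15 ± 0.06 (SE, adjusted p = 0.0916 by edgeR). HIST2H2BE, another such gene, had a log2 fold change of 0.17 ± 0.08 and an adjusted p of 0.145 by edgeR.

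HIST1H2BC, the gene with the highest TPM, had 158, 139 and 182 CPM in DOX-negative and 199, 170 and 181 CPM in DOX-positive replicates 1 to 3. Its groups overlapped, and the log2 fold change of 0.20 ± 0.08 had an adjusted p of 0.0800 by edgeR. HIST1H2BO, next in TPM among H2B genes after HIST1H2BC and HIST1H2BK, had a log2 fold change of 0.10 ± 0.11. The extremes of the type were genes with few reads, HIST1H2BE at 0.59 ± 0.41 and HIST1H2BF at -0.66 ± 0.49, neither of which passed the test. Of 15 H2B genes tested, 14 had a value above 0, with a median of 0.17; 3 of 15 were above 0 on the deposited TPM.

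Of the H3 genes, HIST1H3G (chr6:26269405-26271815, minus strand) was higher, with 3.30, 2.51 and 3.53 CPM in DOX-negative and 5.49, 6.69 and 3.70 CPM in DOX-positive replicates 1 to 3. The groups did not overlap, although DOX-positive replicate 3 lay close to DOX-negative replicate 3. The log2 fold change was 0.78 ± 0.22 (SE, adjusted p = 0.0124 by edgeR), and the call ended when DOX-negative replicate 2 (adjusted p = 0.0615) or DOX-positive replicate 2 (0.0698) was left out. HIST1H3B, which took 64.9% ± 1.29 of summed H3 CPM in DOX-negative libraries, had 83.2, 75.3 and 89.3 CPM against 102, 86.2 and 96.7 CPM. Its log2 fold change was 0.20 ± 0.08 (SE, adjusted p = 0.0625 by edgeR), and DOX-positive replicate 2 lay within the DOX-negative range. HIST1H3A and HIST1H3H had log2 fold changes of 0.35 ± 0.16 and 0.20 ± 0.12.

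None of the 8 H4 genes tested passed the test by edgeR, and 1 of them, HIST1H4C, had an unadjusted p under 0.05. DESeq2 and limma on the TPM also called 0 of them. HIST1H4C passed the test in edgeR with no filter, with the replicate block, and when DOX-negative replicate 1 or DOX-positive replicate 2 was left out, and HIST1H4H passed when DOX-negative replicate 3 was. The leading gene HIST1H4B had 41.4, 34.6 and 46.3 CPM in DOX-negative and 52.6, 42.7 and 38.8 CPM in DOX-positive replicates 1 to 3, with overlapping groups and a log2 fold change of 0.14 ± 0.11. HIST1H4H stood at 0.18 ± 0.09, HIST1H4K at 0.26 ± 0.20, HIST1H4D at 0.36 ± 0.24 and HIST4H4 at -0.01 ± 0.26 on the same scale. Several H4 values rested on DOX-negative replicate 2. HIST1H4C had 25.7, 13.4 and 17.2 CPM in the DOX-negative libraries and HIST1H4K 15.8, 7.57 and 19.3 CPM, and without that library the median of the H4 genes went from 0.16 to 0.05 and HIST1H4K to -0.05.

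Summed by type, the H2A level was 274, 240 and 285 CPM in DOX-negative and 379, 296 and 350 CPM in DOX-positive replicates 1 to 3, or 128% of the DOX-negative mean. All DOX-positive libraries lay above the DOX-negative ones, just so in DOX-positive replicate 2. H2B was at 112%, H3 at 117% and H4 at 114% of the DOX-negative mean, each with overlapping libraries, and H1 at 86.2%, with all DOX-positive libraries below the DOX-negative ones. The H2A, H2B, H3 and H4 medians of log2 fold change were 0.24, 0.17, 0.20 and 0.16, while that of H1 was -0.07. On the deposited TPM all of these medians were below 0, from -0.40 in H1 to -0.14 in H2A, where that of all genes was -0.32. The H1 median was above 0, at 0.07 and 0.11, when DOX-negative replicate 3 or DOX-positive replicate 2 was left out, and at 0.09 with DESeq2 or with no filter, where 5 H1 genes were fitted, and the H4 median was -0.0020 with offsets for GC content and length. No test of a difference between histone types was made.

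**Figure D4:**
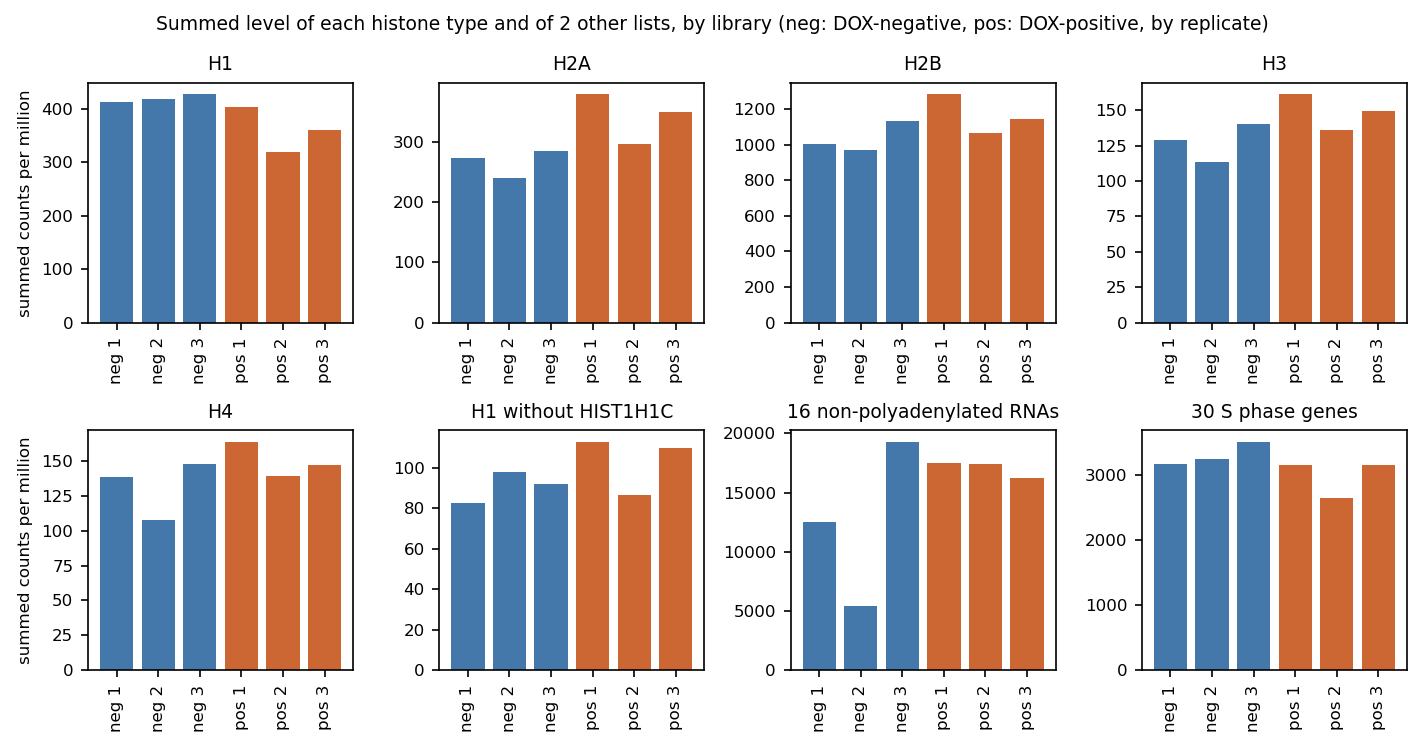
Summed CPM of each histone type, of H1 without HIST1H1C, of 16 RNAs that normally lack a poly(A) tail and of 30 S phase genes, with 1 bar per library. DOX-negative replicate 2 (neg 2) is the lowest bar for the tail-less RNAs at 5409 CPM and for H4, and DOX-positive replicate 2 (pos 2) is the lowest for the S phase genes at 2642 CPM.

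Most H2A and H2B genes of the clusters lie head to head and are read in opposite directions from a shared promoter region. Among annotated pairs with at most 1000 bases between the starts, 9 had both genes tested. The promoter windows printed here are the 250 bases before the start, from RefSeq on GRCh38.p14, of HIST1H1C (the gene that was lower), of HIST2H2AC (shared with HIST2H2BE) and of HIST1H2AG (shared with HIST1H2BJ). Capitals mark 4 motifs found on either strand, namely the octamer ATTTGCAT, the CCAAT box, the TATA box (TATAAA) and the H1 box (AAACACA), and overlapping matches run together.
HIST1H1C, chr6:26056471-26056720, minus strand: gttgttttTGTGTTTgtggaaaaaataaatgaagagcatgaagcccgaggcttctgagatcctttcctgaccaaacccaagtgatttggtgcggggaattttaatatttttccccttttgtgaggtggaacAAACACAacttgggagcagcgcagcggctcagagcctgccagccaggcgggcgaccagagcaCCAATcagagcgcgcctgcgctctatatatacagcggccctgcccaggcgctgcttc
HIST2H2AC, chr1:149886668-149886917, plus strand: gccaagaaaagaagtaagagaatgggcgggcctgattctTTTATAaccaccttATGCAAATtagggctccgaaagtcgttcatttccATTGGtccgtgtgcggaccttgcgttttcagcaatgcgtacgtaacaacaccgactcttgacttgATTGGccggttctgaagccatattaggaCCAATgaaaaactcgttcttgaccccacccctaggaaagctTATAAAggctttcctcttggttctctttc
HIST1H2AG, chr6:27132793-27133042, plus strand: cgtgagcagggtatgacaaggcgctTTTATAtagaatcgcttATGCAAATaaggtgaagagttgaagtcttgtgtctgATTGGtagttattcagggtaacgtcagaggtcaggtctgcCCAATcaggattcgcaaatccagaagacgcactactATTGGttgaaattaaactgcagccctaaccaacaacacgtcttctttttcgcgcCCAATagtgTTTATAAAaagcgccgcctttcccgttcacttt
The octamer was in 76.9% of the 13 H2A and 73.3% of the 15 H2B promoters that had an entry, in 1 of 7 H3 promoters and in 0 of 8 H4 and 0 of 5 H1 promoters, against 1.66% of all 27305 RefSeq promoters. That 1 H3 promoter is the entry of HIST1H3D, whose window is the same 250 bases as that of the H2A gene HIST1H2AD. The H1 box was in 5 of 5 H1 promoters and in 4.95% of all promoters. CCAAT was in 87.5% of the 48 histone promoters with an entry and in 33.0% of all, and TATAAA in 66.7% and 11.1%. HIST1H2AH had no entry. Both members of the HIST2H2AC and HIST1H2AG pairs hold the octamer, as they read the same DNA, and these matches are letters in a window, not shown sites.

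The 2 genes of a pair had close fold changes in some pairs and distant ones in others. HIST1H2AG and HIST1H2BJ, 291 bases apart, were both higher, at 0.38 ± 0.12 and 0.49 ± 0.13. HIST1H2AC and HIST1H2BC, 218 bases apart, stood at 0.22 ± 0.08 and 0.20 ± 0.08, and HIST1H2AE and HIST1H2BG, 282 bases apart, at 0.39 ± 0.14 and 0.42 ± 0.20. In these pairs the values of both genes were close, although the test was passed by both genes only in the first. HIST2H2AC and HIST2H2BE, 322 bases apart, stood at 0.53 ± 0.10 and 0.17 ± 0.08, and HIST1H2AH and HIST1H2BK, 330 bases apart, at 0.67 ± 0.16 and 0.15 ± 0.06. Pairs with fewer reads and larger SE also lay apart. HIST1H2AJ and HIST1H2BM stood at 0.37 ± 0.23 and 0.02 ± 0.28, and HIST3H2A and HIST3H2BB at -0.16 ± 0.29 and 0.30 ± 0.40.

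The difference within a pair was tested on the log2 ratio of H2A to H2B CPM in each library. For HIST2H2AC over HIST2H2BE the ratio was -1.82, -2.06 and -1.96 in DOX-negative and -1.58, -1.63 and -1.54 in DOX-positive replicates 1 to 3, with no overlap. Its difference was 0.37 with a two-sided exact permutation p of 0.10, the smallest that 3 libraries against 3 allow, and 0.72 after Benjamini-Hochberg adjustment over 9 pairs. For HIST1H2AH over HIST1H2BK the difference was 0.51 with an exact permutation p of 0.20, and libraries overlapped. The other 7 pairs overlapped too, with differences from -0.47 (HIST3H2A over HIST3H2BB) to 0.35 (HIST1H2AJ over HIST1H2BM). This exact test could not take any pair past 0.05 with 3 libraries against 3, whatever the values, so a p of 0.10 says nothing on whether the ratios differ.

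**Figure D5:**
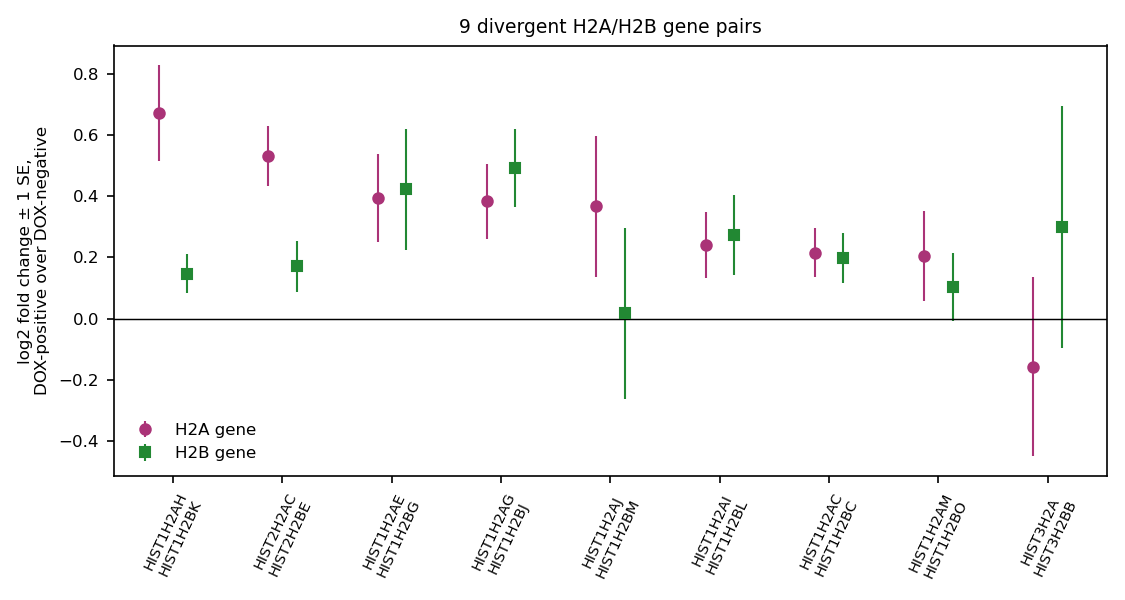
log2 fold change with 1 SE of the H2A gene (circles) and the H2B gene (squares) of 9 divergent pairs, ordered by the H2A value. The H2A and H2B points lie close in the HIST1H2AC, HIST1H2AE, HIST1H2AG and HIST1H2AI pairs. They lie apart in the HIST1H2AH and HIST2H2AC pairs and, with larger SE, in the HIST1H2AJ and HIST3H2A pairs. For each pair, 0.10 is the smallest p that the exact permutation test can give with 3 libraries against 3.

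A list of 12 cluster genes known to give polyadenylated messages held 11 that were tested. HIST1H2AC and HIST1H2BJ were higher, HIST1H1C was lower, and 8 did not pass the test, with a median log2 fold change of 0.17. The list gave 1 higher and 1 lower when DOX-negative replicate 2 was left out, with the replicate block, with total counts and with offsets for GC content and length. Over all genes 13.0% were higher and 13.7% lower. Of the 38 tested genes not on the list, 5 were higher and none lower, with a median of 0.20. The summed level of the listed genes went from 1322 ± 91.6 CPM in the DOX-negative group to 1378 ± 125 CPM, or 104%, and that of the other 44 genes 658 ± 52.1 and 789 ± 94.6 CPM, or 120% (SD, n = 3 each). Without HIST1H1C, the listed sum went from 993 ± 85.0 to 1119 ± 94.9 CPM, or 113%. The sums were not tested against each other, and those of the listed and of the other genes overlapped between groups. The list does not divide the genes by annotation. HIST1H2AG and HIST1H3G, which are not on it, have transcripts annotated past the stem-loop with a poly(A) signal (AATAAA or ATTAAA) near the end. HIST1H2BG and HIST4H4, which are on it, have no such signal there.

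Replication-independent histone genes, most of which are made through the cell cycle and carry poly(A) tails, gave 0 calls among 11 tested by edgeR, DESeq2 or limma on the TPM. By edgeR, 26.7% of all genes tested were called. The replication-independent genes had a median of 0.08, with 1 gene at an unadjusted edgeR p under 0.05. H2AFZ, encoding H2A.Z, had a log2 fold change of 0.11 ± 0.08, H2AFX, encoding H2A.X, 0.20 ± 0.10, and H3F3B, encoding H3.3, 0.14 ± 0.06. H1F0, the linker histone of resting and differentiated cells, stood at -0.06 ± 0.07. H3F3A was listed at 0 in all libraries.

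The 15 tested RNAs that normally lack a tail also gave 0 calls by edgeR, and 16 fitted with DESeq2 gave 0, with 4 of the 15 at an unadjusted edgeR p under 0.05, and a median of 0.40 that was larger than that of the histone genes. In the main edgeR fit, 13.0% of all genes tested were higher and 13.7% lower. With the replicate block 6 of the 15 tail-less RNAs were higher, and with offsets for GC content and length 2 of 9 were. RPPH1, the RNA of RNase P, stood at 0.60 ± 0.23 (SE, adjusted p = 0.0514 by edgeR) and RN7SK at 0.39 ± 0.24. Without DOX-negative replicate 2, in which these RNAs were lowest, their median was 0.14, with 2 higher and 1 lower, and the median of the histone genes was 0.13, with 4 higher and 1 lower. The 4 were HIST1H1E, HIST1H2AH, HIST1H2BJ and HIST2H2AC, and the 1 was HIST1H1C. The summed level of the tail-less RNAs and that of the histone genes were thus both lowest in the same DOX-negative library and both highest, within that group, in DOX-negative replicate 3. In the DOX-positive group the lowest library was not the same, since the tail-less RNAs stood at 17491, 17387 and 16219 CPM in replicates 1 to 3 while the histone sum was lowest in replicate 2, at 1957 CPM.

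Genes that transcribe and process histone messages were looked at beside them. Of 26 tested, MIF4GD, a partner of SLBP in translation, was higher at 0.42 ± 0.14 (edgeR adjusted p = 0.0269), while NCBP1, a cap-binding subunit, at -0.44 ± 0.08 (edgeR adjusted p = 0.000235) and CASP8AP2 (FLASH), part of the histone locus body, at -0.23 ± 0.08 (edgeR adjusted p = 0.0281) were lower. SLBP itself stood at 80.8, 81.7 and 94.0 CPM in DOX-negative and at 81.5, 71.3 and 74.6 CPM in DOX-positive replicates 1 to 3, a log2 fold change of -0.17 ± 0.08 that did not pass the test (edgeR adjusted p = 0.107). NPAT, the activator of histone transcription, was at -0.17 ± 0.07 (edgeR adjusted p = 0.0726). The median of the list was -0.07, and when DOX-negative replicate 2 was left out 0 genes were higher and 1 was lower. With total counts 8 were lower and 1 higher, and on log2 of the deposited TPM 0 were called by limma. In the main fit 13.0% of all genes tested were higher and 13.7% lower.

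Among 22 histone chaperone genes, SUPT16H, a subunit of FACT, was higher, and ANP32E, TONSL, ASF1A and RBBP4 were lower, with a median of -0.09. The shares over all genes tested were 13.0% higher and 13.7% lower. On log2 of the deposited TPM, limma called 0 of the list higher and 1 lower. TONSL had the largest difference, from 6.55, 6.44 and 5.27 CPM in DOX-negative to 3.79, 2.25 and 2.82 CPM in DOX-positive replicates 1 to 3, a log2 fold change of -1.03 ± 0.21 (SE, adjusted p = 0.000810 by edgeR). It encodes a reader of newly deposited histone H4.

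The S phase list had a median below 0, where the core histone types had medians above 0 on counts. Of 30 genes, CLSPN, MCM3, MCM4, MCM5, GINS2, RFC4, POLA1 and TK1 were lower and RRM2 was higher, and the median was -0.14. CLSPN, a mediator of the replication checkpoint, had 103, 108 and 118 CPM in DOX-negative and 77.9, 62.6 and 85.6 CPM in DOX-positive replicates 1 to 3, a log2 fold change of -0.55 ± 0.09 (SE, adjusted p = 0.000103 by edgeR). MCM4, a subunit of the replicative helicase, stood at -0.41 ± 0.07. When DOX-negative replicate 2 was left out, 7 were lower and RRM2 no longer passed. The groups did not overlap for any of the 8 lower genes, whereas PCNA, at -0.06 ± 0.07, did not pass the test. By background, 13.7% of all genes tested were lower and 13.0% higher. On log2 of the deposited TPM 0 of the 30 were called by limma, with a median of -0.52 where that of all genes was -0.32, and on TPM rescaled without the short tail-less RNAs 8 were lower.

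Of 24 G2/M genes, BIRC5 and HMMR were higher and TTK, BUB1, CENPF and CDC25C lower, with a median of -0.03, and 1 was higher and 2 lower when DOX-negative replicate 2 was left out. MKI67, the proliferation marker, had a log2 fold change of 0.07 ± 0.07. Of 21 tested genes tied to cell-cycle exit, CDKN1A, FOXO3, BTG1, DYRK1A and BTG2 were higher and RB1, RBL1, E2F4 and E2F5 lower, with a median of 0.04. CDKN1A, the cyclin-dependent kinase inhibitor p21, had 62.3, 53.4 and 64.5 CPM in DOX-negative and 125, 147 and 121 CPM in DOX-positive replicates 1 to 3, a log2 fold change of 1.13 ± 0.08 (SE, adjusted p = 2.28e-09 by edgeR). Both lists thus held genes that changed in either direction on counts. Over all genes tested, 13.0% were higher and 13.7% lower. On log2 of the deposited TPM, limma called 0 genes of either list.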

How the data were processed

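Poly(A)-selected RNA was sequenced from 3 DOX-negative and 3 DOX-positive samples of DU-145-DR cells carrying tet-MUC1shRNA. The table columns carry DU145TR_tet8 in their names where the sample titles have DU145DR, and were matched on group and replicate number. Raw read counts per gene symbol were deposited by the authors as a whole-series table. TPM values per gene symbol were also deposited by the authors. The ratio of counts to TPM showed scaling by an effective gene length, which raises the TPM of short genes such as histones. The submitters' processing notes name STAR, DESeq2, GRCh38 and hg38. The counting tool and the annotation are not given in the sources used here.

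Differential expression was tested on the counts with edgeR 4.0.16 (R 4.3.3) by filterByExpr, TMM scaling and the two-sided quasi-likelihood test, with Benjamini-Hochberg adjustment over all 14292 genes tested and a threshold of 0.05. The standard error was taken as the size of the log2 fold change over the square root of its F statistic. Members with fewer counts than the edgeR filter needs were not tested. The test was checked on simulated data. Transcripts, coordinates and shared 75-base windows came from GENCODE 29, in which all 55 symbols were found, and promoters from RefSeq, in which 48 of 55 matched. Log ratios to the DOX-negative mean used 0.01 CPM added to each value.

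Named genes were MUC1, members with an adjusted p under 0.05, the 3 members per histone type with the highest mean TPM, the extremes of each type, members at the edges of the 10-count minimum and list genes that passed the test; HIST1H2BG, HIST1H4C, HIST2H2BE, the pair partners and well-known list genes that did not pass, such as SLBP, PCNA, MKI67 and H2AFZ, were added after their values were seen. The members and lists were chosen with earlier results of these data known. Alternatives were DESeq2 1.42.0, limma 3.58.1 on log2 TPM, other scalings and filters, GC and length offsets, a replicate block and leaving out each library.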

Additional observations from a re-analysis of the deposited data

How the results depend on the processing

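The 7 higher and 1 lower histone genes were 5 and 1 with DESeq2 or total counts, 7 and 1 with RLE factors and 8 and 1 on log2(TPM + 1) rescaled without RN7SL1, RN7SL2, RN7SL3, RN7SK and RPPH1. Without a filter 12 genes were higher and with GC and length offsets 4. On the deposited TPM 443 of all genes passed the test with 1 added and 408 with 0.1 added, 0 histone genes were higher and 0 lower, and the median over the histone genes was -0.18 with either; the summed histone level was then 85.6% of the DOX-negative one. The median of all genes shifted to -0.32 and -0.39, 6.77% and 7.11% of all calls were higher against 48.8% on counts, and 5 short RNAs took from 34.4% to 64.4% of the TPM. On that scale the sign turned, with 1 and 0.1 added, for HIST1H1B -0.31 and -0.32, HIST1H1E -0.17 and -0.17, HIST1H2AC -0.17 and -0.17, HIST1H2AG -0.0209 and -0.021, HIST1H2BC -0.18 and -0.18, HIST1H2BK -0.25 and -0.25, HIST1H2BO -0.28 and -0.28, HIST1H3A -0.0648 and -0.0658, HIST1H3B -0.19 and -0.19, HIST1H3H -0.18 and -0.18, HIST1H4B -0.25 and -0.25, HIST1H4H -0.20 and -0.20, HIST1H4K -0.0246 and -0.0247. Each of these lay above the shift of all genes, and with the short RNAs left out before rescaling none of them was below 0. With GC and length offsets HIST1H4B stood at -0.00637. The cause was not tested.

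Leaving out each library gave 4 to 13 higher histone genes, and 1 lower each time, a median of 0.13 to 0.29 and 2784 to 3645 genes in all. The extremes for the higher genes were 4 when DOX-negative replicate 2, or else DOX-positive replicate 3, was left out and 13 when DOX-positive replicate 2 was. The sign turned for HIST1H1B (-0.0413 to 0.22), HIST1H4K (-0.0459 to 0.55), HIST4H4 (-0.18 to 0.22). HIST1H1C, HIST1H2AH, HIST1H2BJ and HIST2H2AC passed the test in 15 of 17 alternatives each, all but those on the deposited TPM, HIST1H3G in 13, HIST1H2AG in 8, HIST1H2AC in 6 and HIST1H2AE in 3. Of 422 values of single named genes under these alternatives, 336 kept direction and side of the threshold.

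Samples with the same replicate number did not deviate together (correlations of -0.0189, -0.0950 and -0.0273), so the numbers do not pair the samples. With the replicate block 7 histone genes were higher and 1 lower, 6 of them among the 8 above, HIST1H2AL and HIST1H4C joined, and 3158 of all genes passed the test. Leaving out members that share over 50% of their windows, an alternative added after seeing the data, or a minimum of 50 or 100 counts gave 7 and 1. These choices could not change the calls, because members are read out of a fit over the whole table. None of the members that share over 50% was called, and HIST1H3G, the called gene with the fewest counts, had 489. The alternative without members of identical protein was not run.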
